A study of Mus musculus with 12 samples.

Results

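Mast cell genes were followed here in white adipose tissue (WAT) and liposarcoma (LPS) of Ad/NICD mice, animals that express the Notch1 intracellular domain, the active part of the receptor, in adipocytes. The genes were fixed by name: Cma1, Cpa3, Mcpt4, Tpsb2, Tpsab1, Kit, Fcer1a, Ms4a2 and Hdc. All 9 were found among the 37750 rows of the deposited table, each in 1 row with a single gene name. Both groups carry the transgene on a mixed 129 x C57BL/6 background, so no group lacks it, and which promoter drives it is not given in the labels. WAT came from animals 3 weeks old (4 libraries). LPS came from animals 9 months (LPS 2 and LPS 6), 10 months (LPS 3 and LPS 8), 11 months (LPS 1, LPS 5 and LPS 7) and 12 months of age (LPS 4), 8 libraries in all. Libraries of a group are biological replicates, per the labels. Every tumour also came from a much older animal than any WAT library, so effects of age and of tissue cannot be told apart. Values are FPKM, fragment counts scaled to transcript length and to the mapped fragments of the library, measured on total RNA of frozen tissue after removal of ribosomal RNA.

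Mast cells are long-lived immune cells of connective tissue and mucosa that carry granules of histamine, heparin-like proteoglycan and proteases. They depend on the receptor KIT and its ligand, and they release their granules when antigen crosslinks IgE held by the high-affinity receptor Fc epsilon RI. In mice, chymases and tryptases distinguish the mast cells of connective tissue from those of mucosa: the connective tissue type carries Cma1 (mouse mast cell protease 5), Mcpt4, Tpsb2 (protease 6) and Cpa3, and the mucosal type carries Mcpt1 and Mcpt2. White fat holds mast cells of the connective tissue type along its vessels. Tpsab1 encodes a further tryptase, protease 7, and is known to be disrupted in the C57BL/6 strain. The Tpsab1 alleles of these animals were not analysed here.

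The start regions of the members show where the transcripts that follow begin. RefSeq windows from 250 bases before to 50 bases after the start site (build GRCm38.p6) were at hand for 7 of the 9 members, without Tpsb2 and Tpsab1. The 3 granule protease genes below are shown because their values run in parallel across the tumours, and Fcer1a because its ratio to Cpa3 did not overlap between the groups. Each is printed 5′ to 3′ on the strand of its gene, the minus strand, and capitals mark GATAA or, for a match on the other strand, TTATC. This is the core that GATA factors, among them the mast cell factor GATA2, are known to bind.
Cma1, chr14:55944626-55944925: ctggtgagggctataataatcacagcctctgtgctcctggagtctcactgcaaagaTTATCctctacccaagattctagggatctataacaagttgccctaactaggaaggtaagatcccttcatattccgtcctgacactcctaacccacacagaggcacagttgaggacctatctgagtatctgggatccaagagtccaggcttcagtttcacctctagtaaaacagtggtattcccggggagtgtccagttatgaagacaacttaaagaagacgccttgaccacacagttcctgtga
Mcpt4, chr14:56062261-56062560: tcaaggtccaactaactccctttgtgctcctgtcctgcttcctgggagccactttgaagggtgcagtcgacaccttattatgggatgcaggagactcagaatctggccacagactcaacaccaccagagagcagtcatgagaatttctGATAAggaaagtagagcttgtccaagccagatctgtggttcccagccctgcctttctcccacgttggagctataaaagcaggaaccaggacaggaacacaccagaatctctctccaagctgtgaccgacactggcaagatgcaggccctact
Cpa3, chr3:20242132-20242431: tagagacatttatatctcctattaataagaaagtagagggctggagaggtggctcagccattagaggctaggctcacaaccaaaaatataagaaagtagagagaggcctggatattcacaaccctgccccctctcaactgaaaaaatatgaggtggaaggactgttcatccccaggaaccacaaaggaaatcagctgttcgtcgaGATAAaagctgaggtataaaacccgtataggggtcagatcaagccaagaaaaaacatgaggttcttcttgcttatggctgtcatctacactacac
Fcer1a, chr1:173227180-173227479: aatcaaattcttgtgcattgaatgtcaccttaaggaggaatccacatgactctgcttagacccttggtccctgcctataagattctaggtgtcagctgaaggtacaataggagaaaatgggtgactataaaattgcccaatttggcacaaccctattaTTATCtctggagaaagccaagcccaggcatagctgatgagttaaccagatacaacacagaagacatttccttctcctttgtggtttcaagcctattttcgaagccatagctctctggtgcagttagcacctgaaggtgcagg
GATAA was found, on either strand, in the windows of 5 members, namely these 4 with 1 match each and Ms4a2 with 3 matches. Among all 32851 windows of the same length, 25.4% held it. The first base of the match lay at position -194 from the start site in Cma1, -102 in Mcpt4, -45 in Cpa3 and -92 in Fcer1a. The windows of Kit and Hdc held no GATAA. The E-box CANNTG, which reads the same on both strands, was found in the windows of 5 of the 7 members (Cma1, Cpa3, Kit, Fcer1a and Hdc) against 72.3% of all windows. TATAAA, on either strand, was found in those of Cpa3, Mcpt4 and Fcer1a against 13.6% of all windows. The motifs were chosen after the sequences had been seen, they are matches of letters, and no binding was measured.

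The labelled tissues were checked first. The summed level of 5 adipocyte genes ran from 3301 to 4149 FPKM in the WAT libraries, against 2.66 to 40.0 FPKM in tumours. For 5 pericyte genes it ran from 148.6 to 167.9 FPKM in WAT, against 3232 to 6641 FPKM in tumours. Cma1, Mcpt4, Tpsb2, Cpa3, Kit and Hdc reached 1 FPKM in all 4 WAT libraries. The basophil protease genes Mcpt8 and Prss34 reached at most 0.140 and 0.322 FPKM in any library. Of 6 melanocyte genes, checked because melanocytes also use Kit, Sox10, which Schwann cells also use, measured 1.05 to 1.98 FPKM in WAT. In tumours it reached at most 0.129 FPKM. It was called lower, having passed the filter through WAT alone, so its call is not independent of the filter. The other 5 reached at most 0.514 FPKM (Pmel), and Dct and Tyrp1 at most 0.249 and 0.0650 FPKM. The part of melanocytes in the level of Kit was not tested. Depth was read from the low values: about 1 fragment of a transcript of 2000 bases was worth 0.0181 FPKM in WAT 1, the deepest library, and 0.0470 FPKM in LPS 1, the shallowest, a 2.60-fold span. Fcer1a and Ms4a2 both have several values under 0.5 FPKM, and those values therefore rest on few fragments. LPS 5 had the fewest rows at 1 FPKM or more, 12965 against 13047 to 14248 in the others. Kit was called lower without LPS 5, but also with all libraries kept and array quality weights.

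Granule proteases of the connective tissue type were low in 7 of the 8 tumours and highest of all libraries in LPS 8. Cma1, a chymase gene, measured 16.4, 16.1, 15.6 and 19.0 FPKM in WAT 1 to WAT 4. Across LPS 1 to LPS 8 it measured 4.29, 0.750, 0.892, 0.962, 3.04, 5.89, 3.71 and 33.3 FPKM. The 4 WAT libraries lay close together, 7 tumours lay below all of them, and LPS 8 lay above all of them. Cma1 fell from a mean of 16.8 ± 1.55 FPKM (SD, n = 4 WAT) to 6.60 ± 10.9 FPKM (SD, n = 8 tumours), a difference of -1.99 ± 0.65 (SE) on the log2(FPKM + 1) scale (limma adjusted p = 0.0230). Cpa3 encodes carboxypeptidase A3, a protease stored with the chymases. It measured 10.0, 11.3, 10.6 and 15.7 FPKM in the WAT libraries and 3.58, 0.483, 1.01, 1.03, 2.41, 5.47, 3.06 and 28.7 FPKM across LPS 1 to LPS 8. The same 7 tumours lay below WAT and LPS 8 above it, and Cpa3 fell by 1.65 ± 0.63 (SE) on that scale (adjusted p = 0.0472). In bulk tissue, fewer mast cells and less RNA of these genes per mast cell cannot be told apart.

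Mcpt4, the other chymase gene, and Tpsb2, the main tryptase gene, had the same layout without a call. Mcpt4 measured 9.11, 11.3, 11.3 and 14.7 FPKM in the WAT libraries and 5.45, 0.488, 1.56, 1.62, 1.86, 6.00, 2.69 and 33.5 FPKM across LPS 1 to LPS 8 (log2 difference -1.48 ± 0.64 (SE), limma adjusted p = 0.0782). Tpsb2 measured 14.7, 13.7, 15.4 and 17.5 FPKM in the WAT libraries and 5.50, 0.709, 1.19, 2.09, 4.79, 9.87, 6.53 and 41.5 FPKM across LPS 1 to LPS 8 (log2 difference -1.46 ± 0.67 (SE), limma adjusted p = 0.0946). For both, 7 tumours lay below every WAT library and LPS 8 lay above every WAT library. Of the 7 members tested, 2 were called lower in LPS (28.6%) and none higher, against 27.0% of all 14821 rows called lower and 18.9% called higher. The share of members called lower lay near that of the whole table. None of the 9 members had groups that did not overlap, against 32.6% of all rows, and none had every tumour below every WAT library, against 20.9%. The median log2 difference of the 7 was -1.46, against -0.05 over all rows. Every tested member had at least 1 FPKM in at least 3 WAT and at least 5 LPS libraries, so none passed the filter through 1 group alone.

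**Figure D1:**
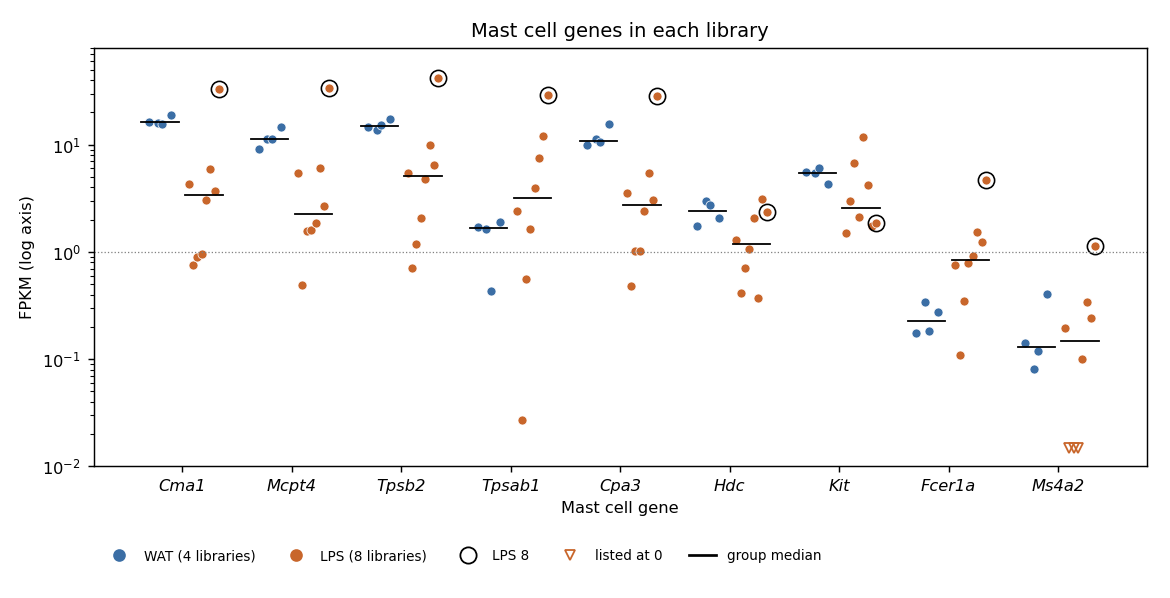
FPKM (log axis) of each mast cell gene in the 4 WAT libraries (blue) and the 8 LPS libraries (orange); bars are group medians, black rings mark LPS 8, triangles mark values listed at 0, and the dotted line is at 1 FPKM. For Cma1, Mcpt4, Tpsb2 and Cpa3, LPS 8 sits above all WAT points and the other 7 tumours sit below them.

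The calls changed when single libraries were left out. Without LPS 8, a choice made here because of its values, 4 of 7 members were lower, namely Cma1, Cpa3, Mcpt4 and Tpsb2 (limma adjusted p = 0.000250, 0.000644, 0.00138 and 0.00550), against 26.6% of the 14690 rows of that fit, and none was higher, against 18.3%. The 7 other tumours then averaged 2.79 ± 1.99 FPKM of Cma1 (SD, n = 7), 6.00-fold below WAT, and 2.43 ± 1.77 FPKM of Cpa3, 4.88-fold below WAT. Without LPS 8, the groups did not overlap for these 4 genes, each tumour lying below each WAT library, as in 21.5% of all rows. Both calls ended when any 1 of the WAT libraries was left out (adjusted p, in the order WAT 1 to WAT 4, = 0.0529, 0.0512, 0.0519 and 0.0612 for Cma1, and 0.0823, 0.0903, 0.0880 and 0.122 for Cpa3). The call of Cpa3 also ended when any tumour other than LPS 6 or LPS 8 was left out (0.0597 without LPS 1, 0.0736 without LPS 2, 0.0728 without LPS 3, 0.0757 without LPS 4, 0.0681 without LPS 5 and 0.0628 without LPS 7), after median ratio scaling (0.0543), after quantile normalization (0.0541) and with no filter on low values (0.0734).

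Relative to each other, these 4 proteases varied far less than their levels did. Across the 8 tumours Cpa3 spanned 59.3-fold, from LPS 2 to LPS 8, whereas the ratio of Cma1 to Cpa3 within a library spanned 1.76-fold, from 0.882 to 1.55. In WAT that ratio was 1.21 to 1.63. The ratio of Mcpt4 to Cpa3 was 0.909 to 1.07 in WAT and 0.773 to 1.58 in LPS. The ratio of Tpsb2 to Cpa3 was 1.11 to 1.47 in WAT and 1.18 to 2.13 in LPS. FPKM is scaled by transcript length, so these are ratios of levels per length. For all 3 ratios the groups overlapped. LPS 2, the tumour with the lowest values, held 4.48% of the WAT mean for Cma1, 4.06% for Cpa3, 4.20% for Mcpt4 and 4.63% for Tpsb2. LPS 8 held 1.99-fold, 2.41-fold, 2.88-fold and 2.71-fold of the WAT mean of the same genes.

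Tpsab1 broke that proportion. It measured 1.70, 1.63, 0.431 and 1.91 FPKM in WAT, and 2.40, 0.0273, 0.561, 1.64, 3.96, 7.52, 12.1 and 28.9 FPKM across LPS 1 to LPS 8. Its groups overlapped, with 5 tumours above every WAT library and LPS 2 below every one, and the difference was not called (log2 difference 1.01 ± 0.75 (SE), 95% interval -0.62 to 2.64, limma adjusted p = 0.294). Against Tpsb2, its neighbour on chromosome 17, Tpsab1 stood at 0.0281 to 0.119 in WAT. The ratio of Tpsab1 to Tpsb2 was 0.436, 0.0385, 0.472, 0.787, 0.828, 0.762, 1.86 and 0.697 in LPS 1 to LPS 8. It was thus above all WAT values in every tumour but LPS 2. In LPS 2, about 1 fragment of a transcript of 2000 bases was worth 0.0262 FPKM. The Tpsab1 value of 0.0273 FPKM there thus rests on very few fragments. The place of the LPS 2 ratio relative to the WAT range is therefore uncertain. LPS 7, where Tpsab1 was the higher of the pair, had the highest ratio. The longest Tpsab1 and Tpsb2 transcripts of GENCODE M21, 1928 and 1289 bases, share no stretch of 50 bases with any other gene's transcripts. The ratios were chosen after their values were seen, and no test was made on them.

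**Figure D2:**
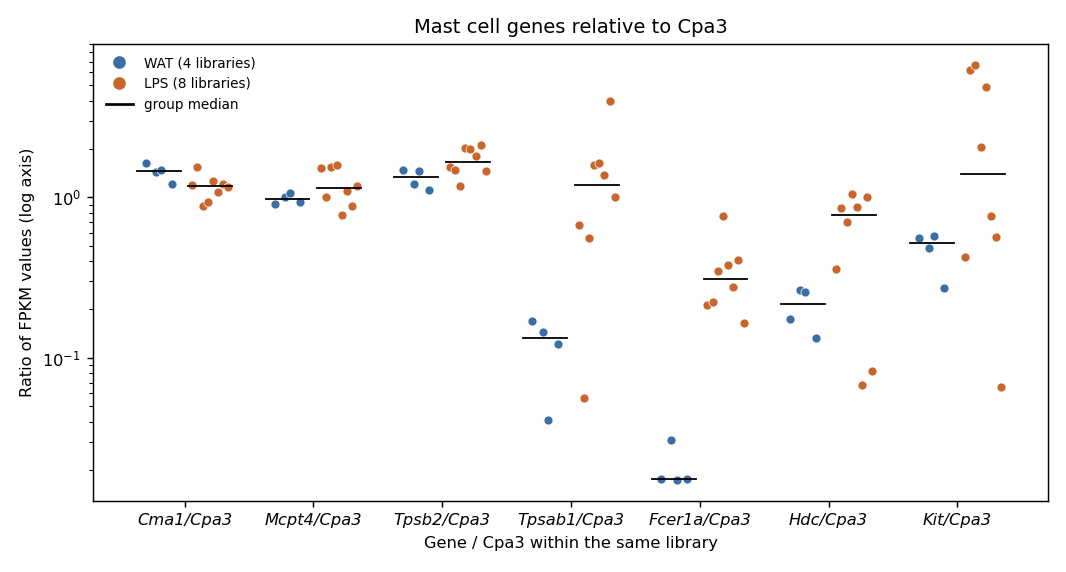
Ratio of the FPKM of 7 mast cell genes to that of Cpa3 in the same library (log axis), for 4 WAT (blue) and 8 LPS libraries (orange), with bars at the group medians. The Cma1, Mcpt4 and Tpsb2 ratios of both groups lie between 0.773 and 2.13, while the Fcer1a ratios of WAT and LPS lie apart and the Kit ratios spread over 102-fold among the tumours.

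The alpha and beta chain genes of the IgE receptor lay low, and the alpha chain was high in relation to Cpa3 in tumours. Fcer1a, the alpha chain that binds IgE, measured 0.177, 0.344, 0.183 and 0.276 FPKM in the WAT libraries and 0.763, 0.108, 0.349, 0.785, 0.913, 1.52, 1.25 and 4.74 FPKM across LPS 1 to LPS 8. All tumours but LPS 2 lay above every WAT library. At least 1 FPKM was reached in 3 libraries only, so the gene was below the filter of the main test. With no filter its log2 difference was 0.71 ± 0.34 (SE, limma adjusted p = 0.147), and an exact permutation test over all 495 splits into 4 and 8 libraries gave an unadjusted two-sided p = 0.0404. The ratio of Fcer1a to Cpa3 was 0.0173 to 0.0306 in WAT and 0.165 to 0.766 in LPS, with no overlap. Among the member ratios to Cpa3, it alone had no overlap. Of the 14820 rows tested other than Cpa3, 8.93% had a ratio to Cpa3 that did not overlap between the groups. Fcer1a, below the filter, was not among the rows tested. Ms4a2, the beta chain that amplifies the signal, measured 0.141, 0.0816, 0.118 and 0.407 FPKM in the WAT libraries and 1.13 FPKM in LPS 8. It was listed at 0 in LPS 2, LPS 3 and LPS 4, and it lay at 0.0996 to 0.343 FPKM in the remaining tumours. With no filter its log2 difference was 0.04 ± 0.18 (SE, limma adjusted p = 0.890). The gamma chain gene Fcer1g, which macrophages and other myeloid cells also use, rose from 15.7 ± 3.44 FPKM (SD, 4 WAT libraries) to 54.3 ± 34.2 FPKM (SD, 8 tumours; limma adjusted p = 0.0108). It was highest in LPS 7, at 115.8 FPKM, and in LPS 8 it lay at 25.9 FPKM.

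Kit and Hdc, genes that other cells use as well, had other tumours at their ends than the proteases. Kit, the receptor for stem cell factor, measured 5.56, 5.41, 6.10 and 4.30 FPKM in the WAT libraries and 1.51, 3.00, 6.77, 2.10, 11.8, 4.18, 1.73 and 1.88 FPKM across LPS 1 to LPS 8. LPS 5 and LPS 3 lay above every WAT library and the other 6 tumours below. LPS 8, the highest for 7 of the 9 members, held 0.351-fold of the WAT mean of Kit. Kit was not called (log2 difference -0.54 ± 0.39 (SE), 95% interval -1.39 to 0.31, limma adjusted p = 0.284), and without LPS 5 it was called lower (-0.76, adjusted p = 0.0462). Its ratio to Cpa3 was 0.274 to 0.577 in WAT and ran from 0.0655 in LPS 8 to 6.70 in LPS 3, a 102-fold span. Hdc, the enzyme that makes histamine, measured 1.75, 3.00, 2.71 and 2.08 FPKM in the WAT libraries and 1.28, 0.413, 0.705, 1.07, 2.09, 0.371, 3.09 and 2.36 FPKM across LPS 1 to LPS 8. Its groups overlapped, and it was not called (log2 difference -0.57 ± 0.29 (SE), 95% interval -1.21 to 0.06, limma adjusted p = 0.129). Without LPS 7 it was called lower (-0.70, adjusted p = 0.0456). LPS 6 held the second highest level of Cma1, Mcpt4, Tpsb2 and Cpa3 among tumours and the lowest level of Hdc.

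**Figure D3:**
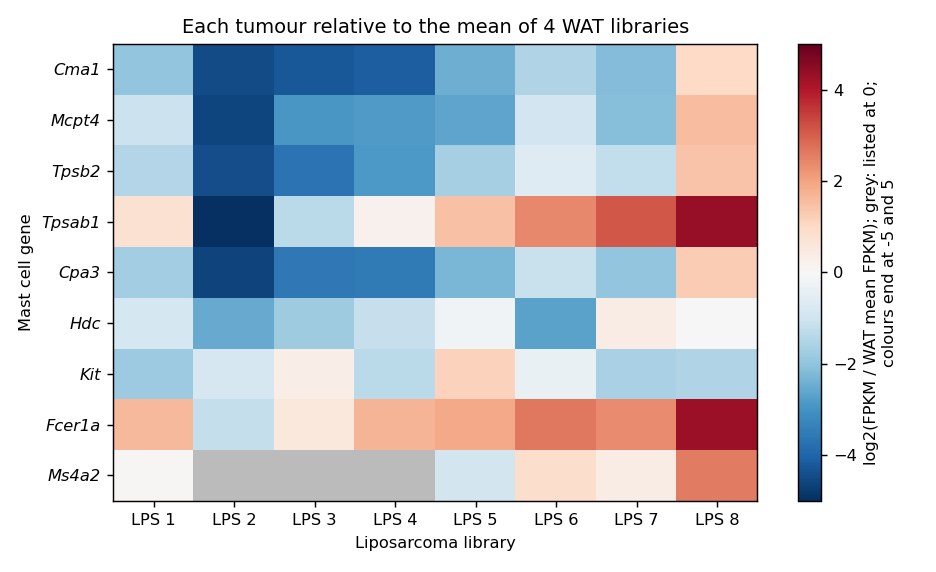
Level of each mast cell gene in each LPS library as log2 of its FPKM over the mean FPKM of the 4 WAT libraries (red above, blue below, grey listed at 0; colours end at -5 and 5). The LPS 8 column is red for 7 genes and LPS 2 is blue for every gene with a value above 0, while the Kit and Hdc rows differ from the protease rows.

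The 5 proteases, Fcer1a and Ms4a2 had the same tumours at both ends, with LPS 8 highest in 7 of 9 members and LPS 2 lowest, or tied for lowest, in 7 of 9. The order between those ends differed among them: LPS 1, for example, lay above LPS 7 for Cma1 and below it for Tpsab1 and Fcer1a. Over all rows tested, LPS 8 was the highest tumour in 13.4% and LPS 2 the lowest in 9.64%. LPS 8 and LPS 3 are both from animals 10 months old, and they held 33.3 and 0.892 FPKM of Cma1. Within LPS, the fitted change per month of age ran from -0.18 ± 0.45 (SE) for Cma1 to 0.32 ± 0.17 (SE) for Hdc on the log2(FPKM + 1) scale, and none of the 7 members tested was called, nor was any of the 13280 rows (0%). At an unadjusted p below 0.05 there were 228 rows and none of the members.

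Most other protease genes at the chymase and tryptase loci were near 0 in WAT. Cma1 (chromosome 14, 55941453 to 55944661) and Mcpt4 (56059744 to 56062310) lie in a cluster of mast cell and granzyme protease genes. Outside it, beside Cma1, Sdr39u1, which is no protease gene, reached 23.3 FPKM in WAT. Between them, Cma2, Mcpt9 and, in WAT, the mucosal chymase genes Mcpt1 and Mcpt2 reached at most 0.422 FPKM. In tumours Mcpt2 measured 0.0595 FPKM in LPS 3, 0.216 FPKM in LPS 5, 5.20 FPKM in LPS 6, 1.07 FPKM in LPS 7 and 1.88 FPKM in LPS 8, and it was listed at 0 in LPS 1, LPS 2 and LPS 4. Mcpt1 was also highest in LPS 6, at 1.10 FPKM. LPS 6 rather than LPS 8 thus held the most mucosal protease transcripts, and its Mcpt2 level was close to its levels of Cma1, Cpa3 and Mcpt4, at 5.89, 5.47 and 6.00 FPKM. Of the stretches of 50 bases in the longest transcript, 5.48% of those of Mcpt4 also occur in Cma2 transcripts and 5.38% of those of Cma1 in Gm48934 transcripts. How far this shared sequence moved the levels of these 2 genes was not measured. The basophil gene Mcpt8 and Ctsg, the next genes in the row, stayed at or under 0.140 FPKM. Gzmb, a granzyme of cytotoxic lymphocytes at the far end, measured 0.0357 to 0.410 FPKM in the WAT libraries and up to 5.83 FPKM in LPS 1, and it was not called (limma adjusted p = 0.0701), having passed the filter through tumours alone. Gzmc, a further granzyme gene, was highest in LPS 2, at 6.99 FPKM. On chromosome 17, Tpsab1 (25343245 to 25345562) and Tpsb2 (25366550 to 25368094) lie between the protease genes Prss28 and Prss29, with the basophil gene Prss34 beyond them, on one side and Tpsg1, the tryptase gamma gene, on the other. Prss28 and Prss29 reached at most 0.0553 FPKM and Tpsg1 at most 0.700 FPKM, in LPS 8. Cacna1h, a calcium channel gene whose row has the same span as that of Tpsg1, reached 36.8 FPKM in tumours.

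**Figure D4:**
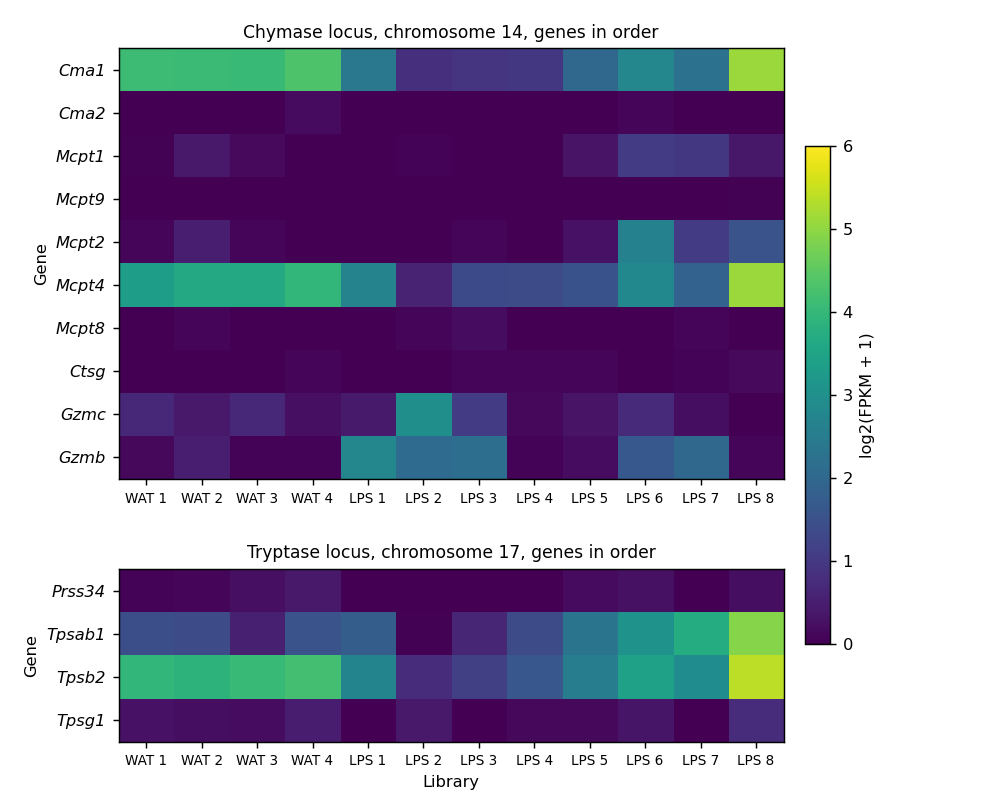
Level as log2(FPKM + 1) of protease genes at the chymase locus (top) and the tryptase locus (bottom), selected and in genomic order, in each of the 12 libraries. Cma1, Mcpt4 and Tpsb2 are the brightest rows in WAT and in LPS 8, where Tpsab1 joins them; Mcpt2 is visible in LPS 6, Gzmb in LPS 1 and Gzmc in LPS 2.

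Genes of other parts of mast cell biology were taken from 7 lists of 56 genes in all. Of the 36 tested, 7 were higher in LPS (19.4%) and 16 lower (44.4%), with a median log2 difference of -0.44. Over all rows tested, 18.9% were higher and 27.0% lower, with a median of -0.05, and the counts of each list are to be read against these shares. Most of these genes are shared with other cells. Of the 6 pan-leukocyte genes, 5 were lower, against the same 27.0%, and their part in these counts was not tested. Among 8 transcription factor genes, 6 of 7 tested were lower and none higher, against 27.0% and 18.9% of all rows. Gata2, which mast cells need, fell from 2.37 ± 0.327 FPKM (SD, 4 WAT libraries) to 0.894 ± 0.476 FPKM (SD, 8 tumours), a log2 difference of -0.87 ± 0.20 (SE, limma adjusted p = 0.00363), with no overlap between the groups. In LPS 8 it lay at 1.20 FPKM, below every WAT library. Gata1 lay below the filter, at 0.282 to 0.527 FPKM in the WAT libraries and at most 0.167 FPKM, in LPS 8, in tumours. Stat5a, which relays KIT and cytokine signals and is also abundant in adipocytes, fell from 22.1 to 4.41 FPKM on average, and the lymphoid factor gene Ikzf1 from 28.8 to 4.28 FPKM. Mitf, the factor that melanocytes and mast cells share, was not called (5.02 ± 0.706 and 7.93 ± 3.06 FPKM, adjusted p = 0.163).

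Receptor and signalling genes went both ways. Of 8 tested receptor and surface genes, 2 were higher (Cd63, a granule membrane protein found in many cells, and Fcer1g) and 3 lower, against 18.9% and 27.0% of all rows. Cd63 rose from 47.5 to 145.8 FPKM. Ptger3, a prostaglandin E receptor, fell from a mean of 24.1 to 1.81 FPKM. Its values spread from 4.94 to 40.2 FPKM in the WAT libraries and from 0 to 6.50 FPKM in tumours, so its groups overlapped. Il1rl1, the receptor for IL-33, fell from a mean of 2.51 to 0.987 FPKM (limma adjusted p = 0.0254). Csf2rb, whose row is joined with a microRNA gene, measured 8.74 to 18.0 FPKM in the WAT libraries and 1.14 to 7.69 FPKM in tumours, with no overlap, and was called lower. Of 9 tested genes that act below Fc epsilon RI, 2 were higher and 4 lower, against the same shares of all rows. The adaptor gene Lat, also used by T cells, fell from 19.0 to 1.20 FPKM and the kinase gene Syk from 18.1 to 6.34 FPKM, while the scaffold gene Gab2 rose from 4.51 to 13.9 FPKM and the kinase gene Fyn from 21.0 to 40.2 FPKM. Of 4 tested granule genes other than the members, 1 was lower, against 27.0% of all rows: Srgn, the core protein of granule proteoglycan in many blood cells, measured 50.3 ± 15.4 FPKM in the WAT libraries and 27.7 ± 20.3 FPKM in tumours (adjusted p = 0.0473). Among the abundant genes of these lists, Il3ra, Plcg1 and Ndst2 were not called (adjusted p = 0.946, 0.766 and 0.803).

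Lipid mediator genes went both ways, and the KIT ligand gene was higher. Of 5 tested lipid mediator genes, 2 were lower and 1 higher, against 27.0% and 18.9% of all rows. Ltc4s, which makes leukotriene C4, fell from 58.7 ± 14.1 FPKM (SD, 4 WAT libraries) to 2.33 ± 1.49 FPKM (SD, 8 tumours; limma adjusted p = 1.32e-07), and LPS 8 held 2.13 FPKM. Alox5, the lipoxygenase upstream of it, fell from 2.21 to 0.757 FPKM. Hpgds, which makes prostaglandin D2 in mast cells and macrophages, rose from 1.77 to 5.48 FPKM and was highest in LPS 1, at 12.5 FPKM. Of the growth factor genes, Kitl, the gene of the KIT ligand, was higher in tumours. Kitl measured 21.2, 21.2, 24.0 and 19.3 FPKM in the WAT libraries and 17.5, 35.8, 72.0, 123.8, 55.8, 96.1, 66.2 and 89.5 FPKM across LPS 1 to LPS 8, a log2 difference of 1.46 ± 0.41 (SE, limma adjusted p = 0.0105). All tumours but LPS 1 lay above every WAT library. LPS 4, the highest for Kitl, was among the 3 tumours with less than 1 FPKM of Cma1. LPS 6 and LPS 8, the next for Kitl, held the highest tumour levels of Cma1, at 5.89 and 33.3 FPKM. A link between Kitl and Cma1 was not tested. Il33 was not called (adjusted p = 0.0666), and none of the 4 histamine receptor genes passed the filter.

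The marker sums of other immune cells peaked in other tumours. The summed level of the 9 mast cell genes was 59.6 to 75.9 FPKM in the WAT libraries and ran from 5.98 FPKM in LPS 2 to 175.9 FPKM in LPS 8. The sum of 6 pan-leukocyte genes was 333.1 to 707.7 FPKM in WAT, and in LPS it was lowest in LPS 8, at 46.7 FPKM, and highest in LPS 1, at 341.6 FPKM. The sum of 6 macrophage genes was 113.4 to 194 FPKM in the WAT libraries and 94.5 to 349.5 FPKM in tumours, with LPS 8 at 115.2 FPKM. The tumour with the most mast cell transcripts was thus the one with the least of the pan-leukocyte set. The sum of 7 lymphocyte genes was 64.7 to 126.7 FPKM in the WAT libraries and 2.17 to 51.1 FPKM in tumours, with LPS 8 at 2.79 FPKM, every tumour below every WAT library. The highest of these tumour sums, in LPS 7, was mostly Cd4, at 48.2 FPKM, which was not called and which macrophages can also express. The 5 markers of skin, a tissue rich in mast cells, summed to 1.94 to 3.44 FPKM in WAT, against 0.162 to 1.09 FPKM in tumours, with LPS 8 at 0.929 FPKM. In LPS 8, Krt10 was at 0.758 FPKM and Trp63 at 0.170 FPKM, and Krt5, Krt14 and Krt1 were listed at 0, as Krt14 was in all tumours but LPS 3. Of the 5 eosinophil genes, none passed the filter. Of 5 genes that Kit-bearing interstitial cells of the gut or blood progenitors use, 2 were higher and 2 lower, against 18.9% and 27.0% of all rows. Ano1 and Etv1, of the interstitial cells, rose (Ano1 from a mean of 9.31 to 182.6 FPKM, Etv1 from 1.51 to 10.6 FPKM). Cd34 fell from 61.1 to 18.7 FPKM and Flt3, which passed the filter through WAT alone, from 2.99 to 0.298 FPKM. Ly6a was not called (limma adjusted p = 0.0607). The part of these cells in the level of Kit was not tested.

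**Figure D5:**
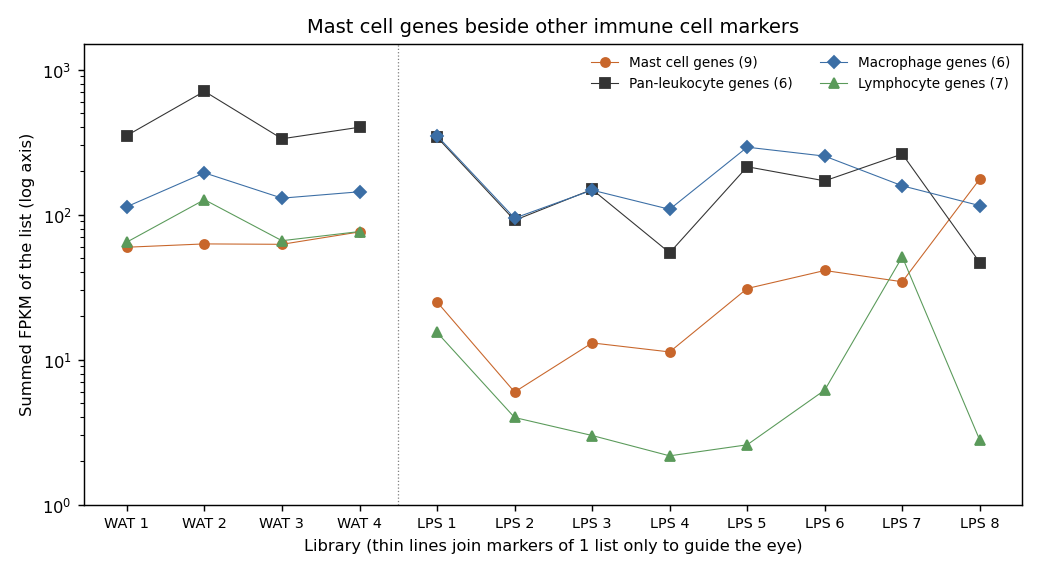
Summed FPKM (log axis) of the 9 mast cell genes, 6 pan-leukocyte, 6 macrophage and 7 lymphocyte genes in each library; thin lines only join the points of 1 list. The mast cell sum peaks in LPS 8, at 175.9 FPKM, where the pan-leukocyte sum is lowest, at 46.7 FPKM.

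Among 14173 other rows with a single name, those most like the mean log2(FPKM + 1) of the 7 members that average at least 1 FPKM were ranked by Pearson's r, as a description. Over the 12 libraries, the first 5 were Mrgprb1 (r = 0.967), Il1rl1 (0.923), Jhdm1d (0.907), Gm15648 (0.863) and Fam134b (0.852), and the median over all candidates was 0.030. Over the 8 LPS libraries they were Mrgprb1 (r = 0.958), Il1rl1 (0.944), Capza2 (0.937), Jhdm1d (0.914) and Dixdc1 (0.903), and 3 genes stand in both rankings. Without LPS 8, r over the other 7 tumours was 0.912 for Mrgprb1 and 0.842 for Il1rl1. Mrgprb1, a Mas-related receptor gene of the same family as the mast cell receptor Mrgprb2, measured 1.16, 1.33, 1.16 and 1.36 FPKM in the WAT libraries and 0.477, 0.0837, 0.0854, 0.132, 0.743, 0.652, 0.418 and 3.10 FPKM across LPS 1 to LPS 8. Il1rl1 measured 2.24, 3.11, 2.76 and 1.93 FPKM in the WAT libraries and 0.716, 0.0880, 0.161, 0.442, 1.32, 0.623, 1.11 and 3.43 FPKM across LPS 1 to LPS 8. For both genes LPS 8 was the highest library of all and LPS 2 the lowest. Of the members themselves, the 5 proteases, Kit and Hdc make up the mean, so a high r of the proteases is largely built in. Fcer1a and Ms4a2 lie outside the mean. Over the 8 tumours, r was 0.940 to 0.992 for the 5 proteases, 0.972 for Fcer1a and 0.955 for Ms4a2, against 0.574 for Hdc and -0.196 for Kit. Without LPS 8, r over the other 7 tumours was lowest among the proteases, Fcer1a and Ms4a2 for Mcpt4, at 0.822. Over all 12 libraries r was 0.584 for Tpsab1 and 0.459 for Fcer1a, and without LPS 8 it was 0.329 and -0.014. The points of these correlations are the libraries. They share 1 processing, and the difference between the tissues enters every r over the 12.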

How the data were processed

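Total RNA of flash-frozen WAT (4 libraries) and LPS (8 libraries) was sequenced as stranded libraries after ribosomal RNA removal, per the labels. The authors deposited a table of FPKM, 1 value per locus in each library. Build GRCm38 and the tools Cuffdiff 2.2.1, Cufflinks 2.2.1, TopHat2 2.1.0, Bowtie2 and Trimmomatic are named, without roles, per the submitters' processing notes. Further scaling of FPKM between libraries is not stated. Fragment totals are not in the table, so relative depth was read from low values, as percentile 5 of FPKM times length, zeros left out, over 2154 genes with 1 transcript longer than 2000 bases, and no counting interval is given. A listed 0 can be a failed estimate.

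The tests used limma 3.58.1 (R 4.3.3) on log2(FPKM + 1) for rows that reached 1 FPKM in 4 or more of 12 libraries, with empirical Bayes (trend, robust), two-sided, and Benjamini-Hochberg adjusted p over all rows called at 0.05. Changes of genes near or below 1 FPKM are understated on this scale. Age was fitted as a slope per month within LPS. The fits were tested on simulated data. The members, gene lists and tests were chosen with earlier results of these data known. Named genes were all members and the 5 rows most like the members over 12 and over 8 libraries. For each mast cell list, the 2 largest called differences each way and the most abundant gene not called were also named. Alox5ap and the growth factor gene mentioned below are left out. Of the lists of other cell types, only part of the genes that this rule picks are named. Gata1, Gzmb, Mcpt1, Mcpt2, Mrgprb1 and Il1rl1 values, the skin markers, the basophil protease genes and the ratios to Cpa3 were picked after their values were seen. Same-numbered WAT and LPS libraries did not deviate together. The tested alternatives were other pseudocounts, filters, scalings, array weights, plain empirical Bayes, a replicate block, exact permutation and each library left out. Adgre1 and Siglecf were matched by older symbols (Emr1 and Siglec5). Table starts are given counted from 1. 1 gene of the growth factor list is not reported here.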

Additional observations from a re-analysis of the deposited data

Results flagged for a closer look

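In 7 of the 9 members, LPS 8 lay so far above the other 7 tumours that its gap exceeded Dixon's 95% limit for 8 samples: Cma1 at 33.3 FPKM, Cpa3 at 28.7 FPKM, Mcpt4 at 33.5 FPKM, Tpsb2 at 41.5 FPKM, Tpsab1 at 28.9 FPKM, Fcer1a at 4.74 FPKM and Ms4a2 at 1.13 FPKM. The same check set apart Il3ra in LPS 3 at 8.82 FPKM, Lat in LPS 1 at 4.53 FPKM, Il33 in LPS 5 at 8.51 FPKM and Syk in WAT 2 at 30.2 FPKM. The check used FPKM itself, not the log2(FPKM + 1) of the fits. It was not repeated on that scale, where high values lie closer together and fewer could be set apart. For normally distributed values, chance alone sets apart about 1 in 20 groups, and FPKM need not be so distributed. In all, 62 groups were examined, and the members are not independent of each other.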

How the results depend on the processing

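The main count of members called lower in LPS was 2 of 7. It was 1 of 9 with no filter on low values and 1 of 8 after median ratio scaling. It was 1 of 7 after quantile normalization and 6 of 7 with array quality weights. Kit and Hdc were among these 6 (limma adjusted p = 0.0281 and 0.0287). With each library left out in turn that count ran from 0 to 4: 0 without any 1 WAT library, 1 without LPS 1, LPS 2, LPS 3 or LPS 4, and 4 without LPS 8. The share of all rows called was taken only for the main fit and the fit without LPS 8. Counts under the other alternatives have no such share beside them and are no result about mast cell genes in particular. No member was called higher in any of the 21 alternatives. Of the related genes, 16 were lower, and 10 of the 25 tested with a filter of 5 FPKM. With libraries left out, 11 to 16 were lower and 6 to 9 higher. The replicate number shared by WAT 1 to WAT 4 and LPS 1 to LPS 4 did not pair the libraries: their deviations from the group means correlated at -0.017, 0.017, 0.092 and 0.033 over 14821 rows. The replicate block leaves LPS 5 to LPS 8 without a partner, so its differences rest on LPS 1 to LPS 4 alone. With it, 5 of 7 members were lower, also without a share of all rows, and Tpsab1 turned to -0.26 (limma adjusted p = 0.543). No age slope of a member was called in any of 11 alternatives. Those of Kit and Hdc kept their sign in all 11, and the other 5 crossed 0: leaving out 1 tumour moved them between -0.63 and 0.15 for Cma1, -0.63 and 0.12 for Cpa3, -0.615 and 0.089 for Mcpt4, -0.58 and 0.25 for Tpsb2 and -0.47 and 0.47 for Tpsab1, and that of Tpsb2 was 0.029 with a pseudocount of 0.1. By exact permutation, unadjusted, Cma1 and Cpa3 gave p = 0.0202 and 0.0444. The median over all rows was -0.05, and 0.10 after quantile normalization. The values of Fcer1a and Ms4a2 under 0.5 FPKM, and that of Tpsab1 in LPS 2, rest on few fragments and are limited by depth. This holds less for Fcer1a in LPS 6, LPS 7 and LPS 8, at 1.52, 1.25 and 4.74 FPKM.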
